A study of Mus musculus with 6 samples.

Results

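The genes described here encode 9 proteins of the mucosal defence layer of epithelia: Ltf, Lcn2, Pigr, Slpi, Wfdc2, Saa3, Lyz2, Muc1 and Cd14. They were put together around Ltf, Lcn2 and Pigr and chosen by their read counts in this same contrast, in which those genes were already known to have fallen strongly. Their differences between the groups are therefore described below without a test. The 9 genes stand among 21936 genes listed in the deposited table. Of the 9, 7 had enough counts to enter the comparison of 11809 genes, while Saa3 and Lyz2 did not.

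RNA was taken from PAM212 cells, a mouse line that the sample labels call keratinocytes and the design line of the series calls melanocytes. The cells were grown in DMEM with fetal bovine serum, and polyadenylated RNA was sequenced from TruSeq libraries. The overexpression group is 3 libraries of PAM212 cells infected with a lentivirus that carries the mouse gene of miR-28-3p, and the control group is 3 libraries of the same line. The controls are labelled as not treated and their titles carry the letters NC, and the sources used here do not state if they held an empty vector. All 6 libraries thus come from 1 cell line, and nothing in the labels tells separate cultures from repeats of 1 RNA, so the spread given below may be technical. The labels name no batch, and a batch that followed the groups and the infection itself cannot be told apart.

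Wet epithelia secrete a set of proteins that hold bacteria in check without waiting for immune cells. Lactoferrin (Ltf) binds free iron, lipocalin 2 (Lcn2) binds the siderophores with which bacteria collect iron, lysozyme (Lyz2) cuts bacterial cell walls, and the inhibitors Slpi and Wfdc2 carry WAP domains, small folds rich in disulfide bonds. The polymeric immunoglobulin receptor (Pigr) carries IgA across the cell into the lumen, Muc1 is a mucin anchored in the apical membrane, Saa3 is an acute phase apolipoprotein, and CD14 hands bacterial lipopolysaccharide to Toll-like receptor 4. In glands, airways and the mammary epithelium many of these genes are switched on by cytokines of the IL-17, IL-1 and interferon families through NF-kB, C/EBP, STAT and IRF factors.

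The overexpressed microRNA and its partner strand are shown first because a direct target can carry a match to the seed, though it need not. The capitals mark the seed, bases 2 to 8 counted from the 5′ end, and the sequences are those of RefSeq on GRCm38.p6. The mouse gene lies on the plus strand of chromosome 16, with the 3p strand at 24827908 to 24827929 and the 5p strand at 24827868 to 24827889.
mmu-miR-28a-3p: cACUAGAUugugagcugcugga
mmu-miR-28a-5p: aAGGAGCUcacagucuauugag
The 7 bases that pair with the 3p seed, ATCTAGT, were searched in the longest annotated 3' UTR of each gene, and so were those for the 5p seed, AGCTCCT. All 9 defence genes have an annotated 3' UTR, and each held 0 matches to either. Among 11673 tested genes with a 3' UTR, 785 (6.72%) held the 3p match and 2081 (17.8%) the 5p match. A missing match says only that these letters are not in those stretches.

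Promoters are printed for Ltf, Pigr and Slpi, which fell far, and for Wfdc2, which fell little, over the stretch upstream of the RefSeq start that is free of annotated exons, on the strand of the gene and 5′ to 3′ (GRCm38.p6). Capitals mark matches to the motifs named after them. Ltf is chr9:111019042-111019270 on the plus strand, Pigr chr1:130826434-130826683 on the plus strand, Slpi chr2:164356508-164356757 on the minus strand and Wfdc2 chr2:164562475-164562578 on the plus strand.
Ltf: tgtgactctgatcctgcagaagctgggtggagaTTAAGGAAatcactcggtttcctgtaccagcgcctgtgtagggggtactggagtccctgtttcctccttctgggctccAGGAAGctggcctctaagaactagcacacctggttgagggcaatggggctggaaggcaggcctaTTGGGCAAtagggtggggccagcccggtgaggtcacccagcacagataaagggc
Pigr: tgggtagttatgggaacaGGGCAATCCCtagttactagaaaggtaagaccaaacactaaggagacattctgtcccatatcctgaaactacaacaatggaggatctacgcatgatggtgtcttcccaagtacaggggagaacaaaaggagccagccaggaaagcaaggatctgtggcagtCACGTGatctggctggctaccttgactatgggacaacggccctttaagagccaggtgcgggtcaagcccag
Slpi: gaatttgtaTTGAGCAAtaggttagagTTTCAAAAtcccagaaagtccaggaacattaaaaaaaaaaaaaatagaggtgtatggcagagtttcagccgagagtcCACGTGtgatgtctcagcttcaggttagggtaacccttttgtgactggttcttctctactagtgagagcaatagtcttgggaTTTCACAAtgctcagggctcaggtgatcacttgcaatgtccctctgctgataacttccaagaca
Wfdc2: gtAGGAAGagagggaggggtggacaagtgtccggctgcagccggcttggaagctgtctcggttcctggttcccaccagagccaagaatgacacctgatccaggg
The motifs were chosen with the sequences in view and searched on both strands of the window of 250 bases before to 50 after the start, for the 8 members with a RefSeq promoter entry and for 27025 promoters in all. The C/EBP motif TTNNGNAA was in 6 of the 8 (Ltf, Lcn2, Slpi, Wfdc2, Saa3 and Lyz2) and in 40.7% of all promoters. The ETS motif AGGAAG was in 5 (Ltf, Lcn2, Pigr, Wfdc2 and Lyz2) against 35.1%. In Pigr the NF-kB motif GGGANNNNCC (20.5% of all promoters) lay at -232 to -223, the E-box CACGTG (7.24%) at -71 to -66, and the STAT motif TTCNNNGAA (8.47%) at 39 to 47, where it overlaps an ETS match at 38 to 43. Slpi held the same E-box at -146 to -141 and C/EBP matches that begin at -241, -223 and -64. Ltf held C/EBP matches that begin at -217 and -75. In Wfdc2 the C/EBP match lay at -133 to -126 and a further ETS match at -87 to -82. Both are outside the stretch of Wfdc2 printed above, which runs from -240 to -137. Lcn2 held a C/EBP match at -216 to -209 and ETS matches that begin at -223, -124 and -21, within bases that exons of other annotated transcripts cover in part, so its promoter is given by positions only. The IRF motif GAAANNGAAA (3.49%) was in Saa3 alone of the 8, overlapping one of its C/EBP matches, TATAAA (14.2%) in Muc1 alone, and the AP-1 motif TGANTCA (7.93%) in 0. The motif sets of Wfdc2, which fell little, and of Ltf and Lcn2, which fell far, all hold C/EBP and ETS letters. A match is a string of letters, and binding was not measured.

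**Figure D1:**
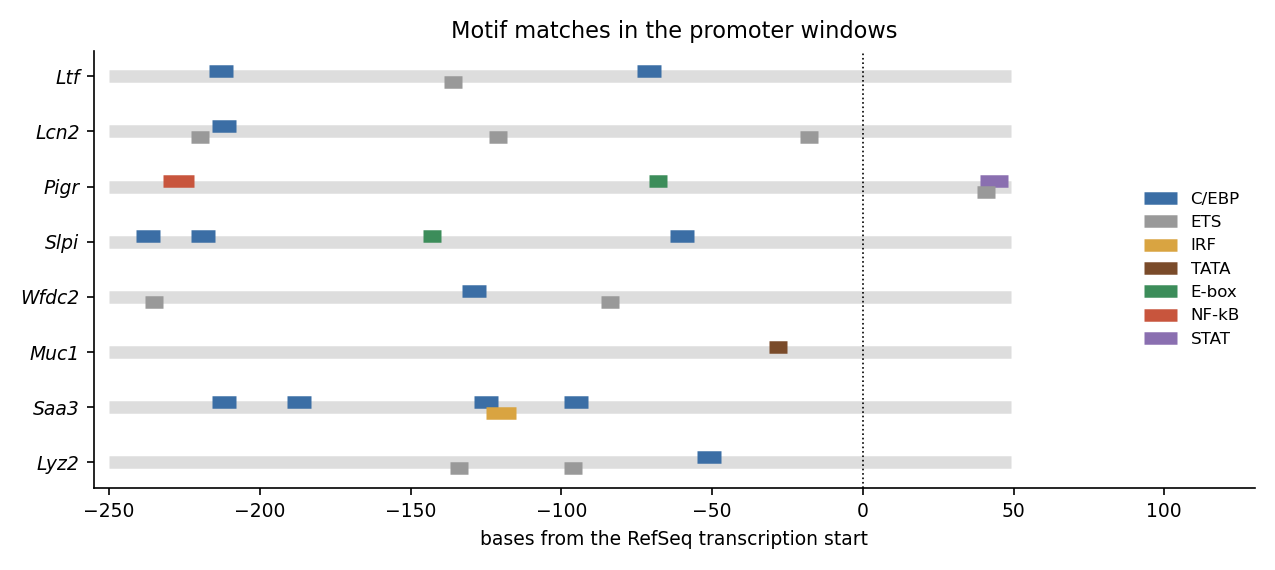
Motif matches in the promoter windows of the 8 members with a RefSeq entry, one grey bar per gene, with bases from the transcription start on the horizontal axis and each colour a motif. Matches to the C/EBP motif appear in 6 genes, whereas the NF-kB and STAT matches appear in Pigr only.

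The 9 genes together made up between 0.219% and 0.224% of each control library and between 0.0425% and 0.0453% of each overexpression library. Their summed level was 2152, 2173 and 2120 CPM (counts scaled to a common library size, with TMM) in the 3 controls, and it came to 438, 468 and 467 CPM in the overexpression libraries. The make-up of the sum changed as well: Lcn2 gave 43.6%, 43.8% and 43.1% of it in the controls and 5.66%, 5.45% and 4.68% with overexpression. Wfdc2 rose from 30.5%, 30.5% and 31% of the sum to 87.7%, 88.9% and 89.6%, although its own level did not rise. In these bulk libraries fewer cells that make a transcript and less transcript per cell cannot be told apart.

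**Figure D2:**
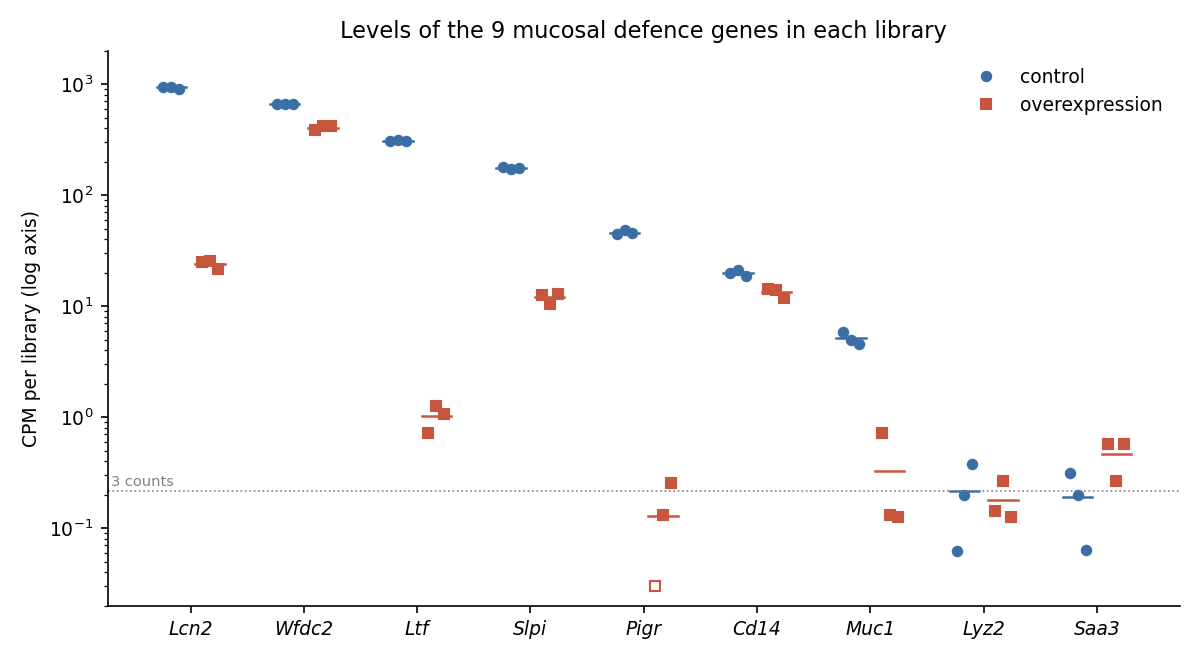
Level of each of the 9 genes in every library in CPM on a log axis, with circles for controls, squares for overexpression, bars for group means, open symbols at the bottom for libraries without a count, and a dotted line at the level of 3 counts in the shallowest library. The groups are apart for 7 genes, by far for Ltf and Pigr and narrowly for Wfdc2 and Cd14, and mixed for Lyz2 and Saa3.

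Of the iron-withholding pair, lactoferrin lost more. Ltf (ENSMUSG00000032496, GRCm38 chromosome 9, 111019271 to 111042767, plus strand) stood at 305, 312 and 306 CPM in the controls, then at 0.721, 1.25 and 1.07 CPM with overexpression. The controls lay within a narrow band, and every overexpression library was far below it. The raw counts were 4861, 4729 and 4824 against 10, 19 and 17, so the ratio of control to overexpression, 300, has an exact 95% interval from counting of 225 to 410, and the fitted log2 fold change was -8.22 ± 0.07 (SE). On the FPKM scale, which also divides by gene length, Ltf went from 92.1 ± 0.945 to 0.285 ± 0.0759 (SD, n = 3 libraries), and from place 452 to place 10931 among the 15710 genes with any count. Intervals and floors here cover counting error only, since PCR reads are not independent molecules.

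Lcn2 (ENSMUSG00000026822, chromosome 2, 32384633 to 32388252, minus strand) stood at 939, 952 and 913 CPM in the controls. With overexpression it read 24.8, 25.5 and 21.8 CPM. The groups did not overlap, yet Lcn2 stayed well above the limit of detection in every library. Its ratio was 39 (36.7 to 41.4), with a log2 fold change of -5.28 ± 0.04 (SE), and its FPKM level fell from 368 ± 8.04 to 8.87 ± 0.721, or from place 106 to place 5173. Ltf thus started below Lcn2 per length and ended below it.

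Pigr, the receptor that carries IgA to the lumen and is itself released as secretory component, came closest to the limit of detection. Pigr (ENSMUSG00000026417, chromosome 1, 130826684 to 130852249, plus strand) stood at 44.2, 48.1 and 45.9 CPM in control libraries and at 0, 0.132 and 0.253 CPM in those with overexpression. The first overexpression library had no read, and the others held 2 and 4 reads against 704 to 729 in the controls. A level of 3 counts corresponds to 0.188 to 0.216 CPM in a single library, so the remaining Pigr level is near that floor. The ratio of the pooled counts was 344, with a wide counting interval of 158 to 939. Because so few reads set it, the fitted log2 fold change of -8.34 ± 0.20 (SE) became -9.22 without the third overexpression library. In FPKM, Pigr went from 11.8 ± 0.476 to 0.0308 ± 0.0303.

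The pair of WAP domain inhibitors parted. Slpi, an inhibitor of neutrophil elastase with antibacterial activity, stood at 181, 173 and 174 CPM in the controls, then at 12.6, 10.4 and 12.9 CPM with overexpression, with no overlap and a ratio of 14.8 (13.5 to 16.1). Wfdc2, also known as HE4, stood at 656, 662 and 657 CPM against 384, 416 and 418 CPM, a ratio of 1.62 (1.59 to 1.65). Its groups did not overlap either, but the drop was small. The log2 fold changes were -3.88 ± 0.06 for Slpi and -0.70 ± 0.03 for Wfdc2 (SE). In FPKM, Slpi fell from 154 ± 4.35 to 9.81 ± 1.13, and Wfdc2 from 597 ± 2.01 to 345 ± 15.6. Per length Wfdc2 was the highest of the 9 in both groups, at place 60 and then at place 75 of 15710.

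Slpi (ENSMUSG00000017002, 164354070 to 164389095, minus strand) and Wfdc2 (ENSMUSG00000017723, 164562413 to 164568510, plus strand) lie on chromosome 2 with 173318 bases between them. The region holds a cluster of WAP and Kunitz inhibitor genes. On that chromosome 19 such genes are listed, Slpi and Wfdc2 among them, and 15 of the 19 had no count in any library. Between Slpi and Wfdc2 lie 8 listed genes, 4 of them tested. Sdc4, a heparan sulfate proteoglycan, fell from 366 ± 1.28 to 268 ± 6.44 CPM (edgeR adjusted p = 6.62e-24). Sys1 fell from 17 ± 1.45 to 12.5 ± 1.6 CPM (edgeR adjusted p = 0.000144), while Pigt, of the GPI anchor transamidase, rose from 78.6 ± 1.78 to 93.9 ± 0.444 CPM (edgeR adjusted p = 4.79e-07). Dbndd2 did not pass (2.49 ± 0.744 and 2.54 ± 0.943 CPM, edgeR adjusted p = 0.88). The tested genes between Slpi and Wfdc2 had log2 fold changes from -0.45 to 0.26, set against -3.88 for Slpi.

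Muc1 (ENSMUSG00000042784, chromosome 3, 89229057 to 89233381, plus strand), the membrane mucin of simple epithelia, was a low transcript in the controls. Its control libraries read 5.84, 4.94 and 4.57 CPM, and its overexpression libraries 0.721, 0.132 and 0.126 CPM. The first overexpression library held 10 reads and the others 2 each, all below the 72 to 93 reads of the controls. The ratio was 16.4 (9.6 to 30.5), and the log2 fold change of -4.00 ± 0.35 became -5.22 without that first library. In FPKM, Muc1 fell from 2.25 ± 0.292 to 0.135 ± 0.141.

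Lyz2 and Saa3 were at the floor in both groups. Lyz2 (ENSMUSG00000069516, chromosome 10, 117277331 to 117282321, minus strand), the lysozyme of macrophages and airway cells, had 1, 3 and 6 reads in the controls and 2, 4 and 2 with overexpression, and the groups overlapped. Its ratio of 1.2 has a counting interval of 0.425 to 3.49, and so few reads do not set a direction. Saa3 (ENSMUSG00000040026, chromosome 7, 46711998 to 46715700, minus strand) had 5, 3 and 1 reads in the controls and 8, 4 and 9 with overexpression. Here too the libraries overlapped, and the ratio of overexpression to control was 2.44 (1.07 to 6.04). That interval leaves out the spread among libraries and is not read as a test. Saa3 was the one member with more reads under overexpression. Neither gene passed the filter on low counts.

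Cd14 (ENSMUSG00000051439, chromosome 18, 36725067 to 36726798, minus strand), the lipopolysaccharide co-receptor that is found on membranes and as a soluble protein, changed least among the 7 under TMM scaling. Its control libraries read 19.8, 21.2 and 18.5 CPM and its overexpression libraries 14.3, 14.1 and 11.8 CPM, so that the lowest control was above the highest overexpression library. The ratio was 1.49 (1.34 to 1.65), the log2 fold change -0.57 ± 0.10 (SE), and the FPKM level went from 11.8 ± 0.801 to 7.49 ± 0.786.

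All 7 tested members were lower in every overexpression library than in any control, but this ordering was common in these libraries. It was met by 43.8% of all 11809 tested genes, and 43.9% were called lower and 42.1% higher by edgeR's quasi-likelihood test at an adjusted p under 0.05. A fall of at least 8-fold with such a call was seen in 4.02% of tested genes and in 5 of the 7 members, Ltf, Lcn2, Pigr, Slpi and Muc1, which is the property the set was built around. By size of fall, Pigr took place 9, Ltf 11, Lcn2 84, Muc1 243 and Slpi 270 among the 11809. Wfdc2 took place 3315 and Cd14 place 3717, each with under 2-fold of change.

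**Figure D3:**
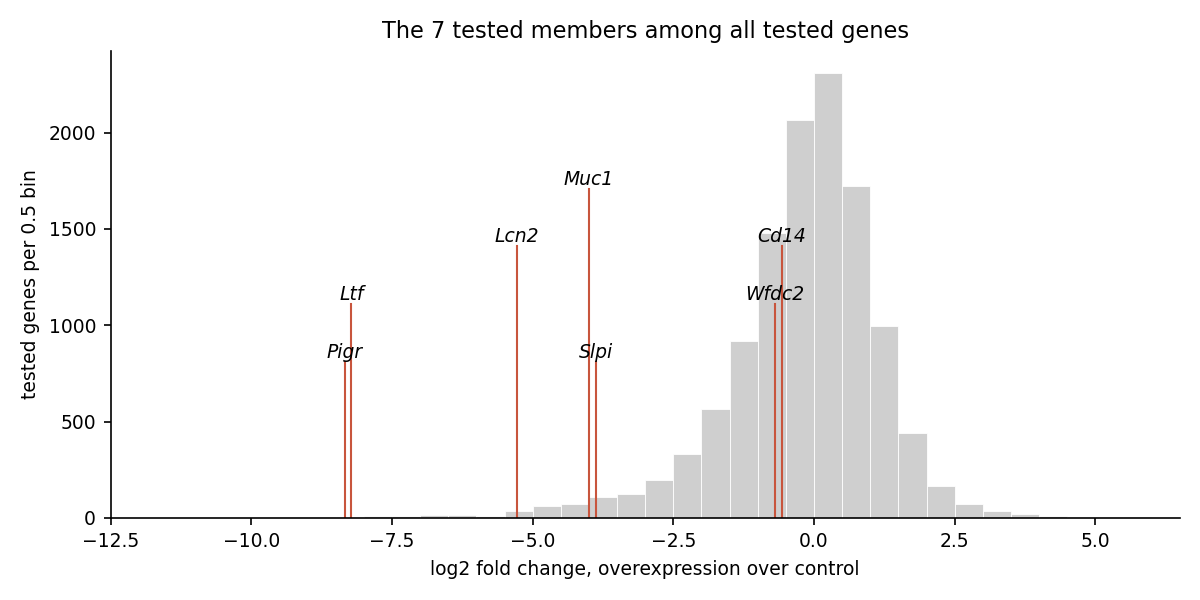
Number of tested genes per 0.5 step of the log2 fold change, overexpression over control, with vertical lines at the 7 tested members whose heights carry no value. Ltf at -8.22 and Pigr at -8.34 lie in the far left tail, Lcn2 at -5.28, Muc1 at -4.00 and Slpi at -3.88 in the tail, and Wfdc2 at -0.70 and Cd14 at -0.57 within the bulk.

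The fold changes of the 5 strongly lowered members held their sign under each scaling tried, whereas those of Wfdc2 and Cd14 depended on how gene length was treated. Short transcripts were lower as a class: with the tested genes cut into 5 classes of length, the class from 243 to 2585 bases had a median log2 fold change of -0.54, with 63% called lower, and the class from 7725 to 123179 bases had 0.47, with 24.5% called lower. Slpi (1180 bases), Wfdc2 (1140), Muc1 (2346) and Cd14 (1732) lie in the shortest class, Ltf (3450) and Lcn2 (2623) in the second and Pigr (4025) in the third. With that trend removed, Wfdc2 moved to 0.03 and Cd14 to -0.01. On the same basis Slpi moved from -3.88 to -3.17, Lcn2 from -5.28 to -4.91, Muc1 from -4.00 to -3.58, Ltf from -8.22 to -8.01 and Pigr from -8.34 to -8.24. Upper quartile scaling, which shifts the median of all tested genes from -0.03 to -0.26, gave -0.93 for Wfdc2 and -0.80 for Cd14. It also moved the share of lower genes among all calls from 51% to 61.4%. What sets the trend over length was not tested.

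**Figure D4:**
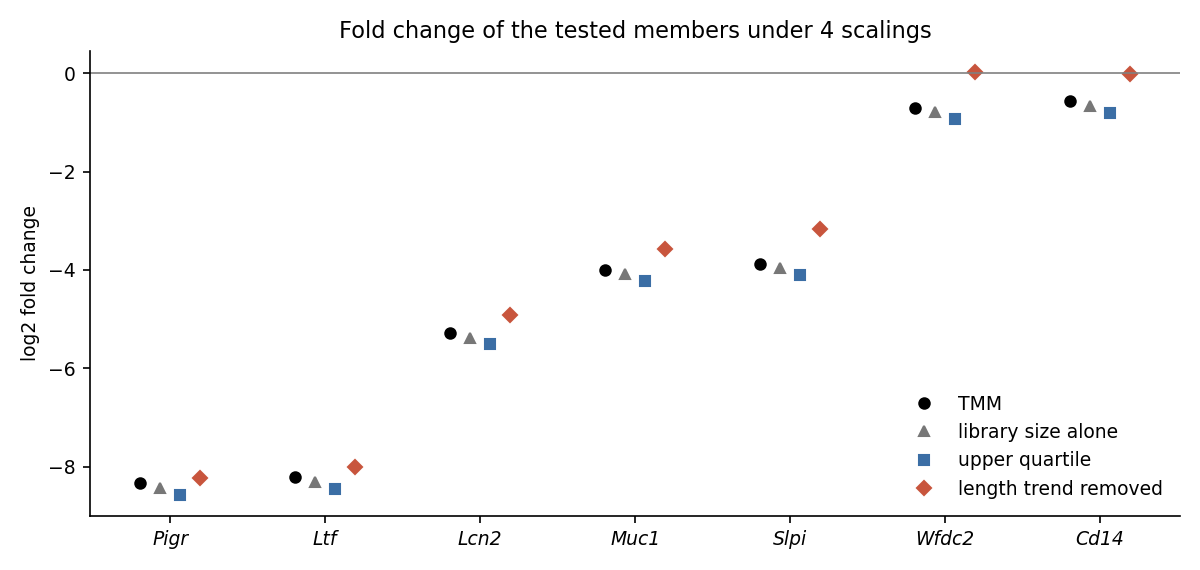
Log2 fold change of the 7 tested members under TMM scaling, library size alone, upper quartile scaling and TMM with the trend over gene length removed. Pigr, Ltf, Lcn2, Muc1 and Slpi stay at -3.17 or lower throughout, while Wfdc2 and Cd14 reach 0.03 and -0.01 once the length trend is removed.

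The genes whose levels over the 6 libraries were nearest to those of Pigr, by Euclidean distance of log2(CPM + 0.5), were S100a16, Dhrs3 and Alpl, at distances of 0.93, 1.10 and 1.26. S100a16, a calcium-binding protein, went from 43 ± 0.581 to 0.251 ± 0.159 CPM. Ltf had no such near neighbour: the nearest, Adssl1, Abcc3 and Bmf, were at 3.18, 3.51 and 3.60. For Lcn2 they were Ifi27 (2.77), the ferroxidase gene Cp (2.93) and Txnip (2.94). Ifi27 went from 309 ± 10.4 to 24.3 ± 0.528 CPM, and Lcn2 from 935 ± 20 to 24 ± 1.93 CPM.

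Other genes of the same pathways were taken from 8 lists of 285 listed genes that hold none of the 9 members, and 132 of them could be tested. Of these, 91 (68.9%) were called lower and 29 (22%) higher, with a median log2 fold change of -0.90, beside 43.9%, 42.1% and -0.03 over all tested genes. With the length trend removed the counts were 89 and 29 and the median -0.68. The lists were drawn up with earlier results of these libraries known, so the counts are no independent evidence of a direction. Adjusted p-values below are from edgeR's quasi-likelihood test over all tested genes.

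Partners of Ltf and Lcn2 in iron handling were mostly lower, 8 of 9 tested, with a median of -1.79. Slc22a17, which encodes a receptor for lipocalin 2, had 43 reads in the controls and 0 with overexpression, at least 13.7-fold lower if the group is set to 3 counts in all (edgeR adjusted p = 3e-07). Lrp1, an endocytic receptor that also takes up lactoferrin, fell from 547 ± 10.1 to 206 ± 9.23 CPM (edgeR adjusted p = 2.32e-48). The ferritin genes that store iron fell as well, Fth1 from 4600 ± 76.6 to 1958 ± 11.3 CPM and Ftl1 from 164 ± 15.1 to 65.8 ± 1.86 CPM. With the length trend removed, the log2 fold change of Ftl1 went from -1.31 to -0.65 and that of Lrp1 from -1.41 to -2.07. The exception was Tfrc, the transferrin receptor that brings iron into the cell, which rose from 78.1 ± 1.3 to 827 ± 7.68 CPM (edgeR adjusted p = 7.1e-68). Trf, the serum paralog of Ltf, had 5 reads against 1 and was not tested.

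In the list of lysozymes, antimicrobial peptides and related genes, 6 of 7 tested genes were lower and 1 higher, with a median of -2.39. The 7 were Chil1, Nos2, Rnase4, Pglyrp1, S100a8, Adm and S100a7a, so no lysozyme or defensin gene was tested. The listed Defb and Reg3 genes had no count in any library. Chil1, a chitinase-like lectin, fell from 37.3 ± 0.801 to 1.49 ± 0.42 CPM (edgeR adjusted p = 5.17e-39). Nos2, the inducible nitric oxide synthase, fell from 32 ± 0.653 to 6.28 ± 0.712 CPM (edgeR adjusted p = 8.45e-30). Rnase4 fell from 16.4 ± 1.31 to 3.1 ± 0.462 CPM (edgeR adjusted p = 5.14e-23). S100a8, a subunit of the metal-binding protein calprotectin, fell from 44 reads to 3, a ratio of 14 (4.5 to 70.7), and its partner S100a9 had no count in any library. S100a7a rose from 6.06 ± 0.92 to 10.8 ± 0.418 CPM (edgeR adjusted p = 2.09e-07). With the length trend removed, the log2 fold change of S100a8 went from -3.66 to -2.82 and that of S100a7a from 0.83 to 1.48. Camp had 6 reads against 3, and Lyz1, the Paneth cell lysozyme, had no count. Pglyrp3 had 0 reads in the controls and 35 with overexpression. It was under the filter of the main fit and was called higher in the 6 alternatives that tested it.

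The list of WAP domain and other epithelial protease inhibitors had 4 of 5 tested genes lower and 1 higher, with a median of -1.17. The tested genes of this list that fell do not encode WAP proteins. Cst3 and Cstb inhibit cysteine proteases, and Spint1 and Spint2 are Kunitz inhibitors of membrane serine proteases. Cst3 fell from 387 to 138 CPM and Spint2 from 544 to 241 CPM. Removing the length trend moved the log2 fold change of Cst3 from -1.49 to -0.80 and that of Cstb from -1.28 to -0.34, both still called lower. Cst6 rose, with a log2 fold change of 0.60, a call lost when a change of at least 1.5-fold was required. The WAP gene Wfdc3 had 18 reads in the controls and 2 with overexpression and was not tested. Wfdc12, like most of the cluster, had no count.

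Of the acute phase list beside Saa3, 6 of 7 tested genes were lower and 0 higher by edgeR, with a median of -2.96. The count of higher genes was also 0 at an unadjusted p under 0.05, and DESeq2, which tests more genes, called 1. Complement C3 fell from 1112 ± 13.3 to 184 ± 3.7 CPM (edgeR adjusted p = 1.4e-64). Ceruloplasmin (Cp), the copper ferroxidase, fell from 525 ± 10.1 to 67.4 ± 3.95 CPM (edgeR adjusted p = 1.6e-61). Mt1 fell less, from 160 ± 0.759 to 86.4 ± 3.63 CPM (edgeR adjusted p = 4.68e-30). The log2 fold change of Mt1 went from -0.89 to -0.20 with the length trend removed. Lbp, which delivers lipopolysaccharide to CD14, went from 146 reads to 0, at least 46.6-fold lower (edgeR adjusted p = 4.65e-15). Saa1 and Saa2, the close relatives of Saa3, had no count in any library.

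Mucins, trefoil factors and the enzymes that build mucin sugars went both ways: 5 of 10 tested were lower and 3 higher, with a median of -0.20. The mucins that could be tested beside Muc1, the gel-forming Muc2 and Muc6, were both lower. Muc2 had 37 reads in the controls and 6 with overexpression (edgeR adjusted p = 0.00073), and Muc6 had 92 and 36 (edgeR adjusted p = 0.000663). The rises were in enzymes of O-glycosylation. C1galt1, the core 1 galactosyltransferase, rose from 71 to 113 CPM (edgeR adjusted p = 4.65e-21) and Galnt3 from 104 to 138 CPM (edgeR adjusted p = 7.07e-15). The chaperone gene C1galt1c1 rose by a log2 fold change of 0.24 (edgeR adjusted p = 0.0155), which came to 0.01 with upper quartile scaling and to 0.87 with the length trend removed. St3gal1, which caps core 1 with sialic acid, fell from 73.4 to 53.5 CPM. Several mucin genes had too few reads for the test. Of these, Muc4 had 13 reads in the controls and 0 with overexpression, Muc15 had 15 and 1, and Muc20 had 29 and 1. Muc16 went the other way, with 2 reads and 15.

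Beside Pigr, 10 of 12 tested genes of immunoglobulin transport and the IgA pathway were lower and 1 higher, with a median of -1.49. The small GTPases of apical vesicle traffic were among the lowered ones: Rab17, known for transcytosis, fell from 17.6 ± 1.2 to 0.604 ± 0.18 CPM (edgeR adjusted p = 3.73e-31). Rab3d fell from 37.6 ± 1.49 to 6.12 ± 0.656 CPM, and Rab25 from 63.5 to 20.3 CPM. Fcgrt, the neonatal Fc receptor that carries IgG, went from 50 reads to 2, a ratio of 23.9 (6.29 to 203). Cldn4, a tight junction protein in the list, fell from 812 ± 17.5 to 322 ± 4.52 CPM. Jchain, the chain of polymeric IgA that Pigr binds, had 6 reads against 0.

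The lipopolysaccharide and Toll-like receptor genes around Cd14 went both ways, with 19 of 36 tested lower, 14 higher and a median of -0.47. Tlr4, which signals for CD14, rose from 24.2 ± 1.1 to 32.1 ± 1.94 CPM (edgeR adjusted p = 2.23e-06), while its co-receptor Ly96 stood at 3.55 and 3.31 CPM and did not pass (edgeR adjusted p = 0.679). With the length trend removed, Ly96 was called higher, at a log2 fold change of 0.67 (edgeR adjusted p = 0.00421). Traf3, Map3k7 and the endoplasmic chaperone Hsp90b1 rose, the first from 51.5 to 149 CPM (edgeR adjusted p = 2.33e-39). Irf7, a transcription factor induced by interferon, fell from 25.1 ± 2.3 to 0.781 ± 0.186 CPM (edgeR adjusted p = 4.8e-35). The adaptor Myd88 fell from 25 to 21.1 CPM (edgeR adjusted p = 0.00592), but had a log2 fold change of 0.13 with the length trend removed. The call on Tlr4 was lost when a change of at least 1.5-fold was required.

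The list around the induction of these defence genes holds cytokines, their receptors, transcription factors and inhibitors of these routes, and 35 of its 48 tested genes were lower and 8 higher, with a median of -0.88. The lowered genes thus include some brakes: Nfkbia, which holds NF-kB in the cytoplasm, fell from 117 ± 11.3 to 50.8 ± 1.01 CPM (edgeR adjusted p = 1.31e-26), and Socs3, an inhibitor of STAT3 signalling, from 55.1 ± 1.82 to 17.8 ± 0.937 CPM (edgeR adjusted p = 3.26e-30). Not all brakes fell: Tnfaip3, an NF-kB inhibitor of the Toll-like receptor list, rose from 101 ± 5.73 to 166 ± 0.709 CPM (edgeR adjusted p = 1.07e-25). Irf1 fell from 107 ± 3.08 to 21.4 ± 1.03 CPM (edgeR adjusted p = 1.25e-42), and Tnfrsf1b, a TNF receptor, from 164 ± 2.65 to 47.4 ± 0.714 CPM (edgeR adjusted p = 2.15e-43). The epithelial ETS factors fell, Ehf from 117 ± 6 to 44 ± 3.35 CPM and Elf3 from 47.8 to 17.1 CPM, and so did Rara, a retinoic acid receptor, from 121 to 44.7 CPM. Stat3 fell from 133 ± 4.47 to 78.9 ± 2.95 CPM (edgeR adjusted p = 6.96e-25). Among the 8 higher genes, Rel, an NF-kB subunit, rose from 6.57 ± 0.572 to 20.5 ± 2.75 CPM (edgeR adjusted p = 1.58e-19), and the cytokine gene Lif from 78.7 ± 1.87 to 138 ± 3.48 CPM (edgeR adjusted p = 7.55e-27). Nfkb1, another subunit, rose by a log2 fold change of 0.25 (edgeR adjusted p = 1.06e-09), which turned to -0.25 with the length trend removed. Cebpb varied among the controls, at 120, 180 and 212 CPM, and was lower at 41.4, 45.7 and 41.2 CPM with overexpression (edgeR adjusted p = 0.00215). Its log2 fold change of -2.00 came to -1.38 with the length trend removed. Cebpd (12.3 and 11.6 CPM, edgeR adjusted p = 0.546) and Nfkbiz (107 ± 1.19 and 104 ± 1.69 CPM, edgeR adjusted p = 0.339), a co-activator of Lcn2 transcription, did not pass.

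**Figure D5:**
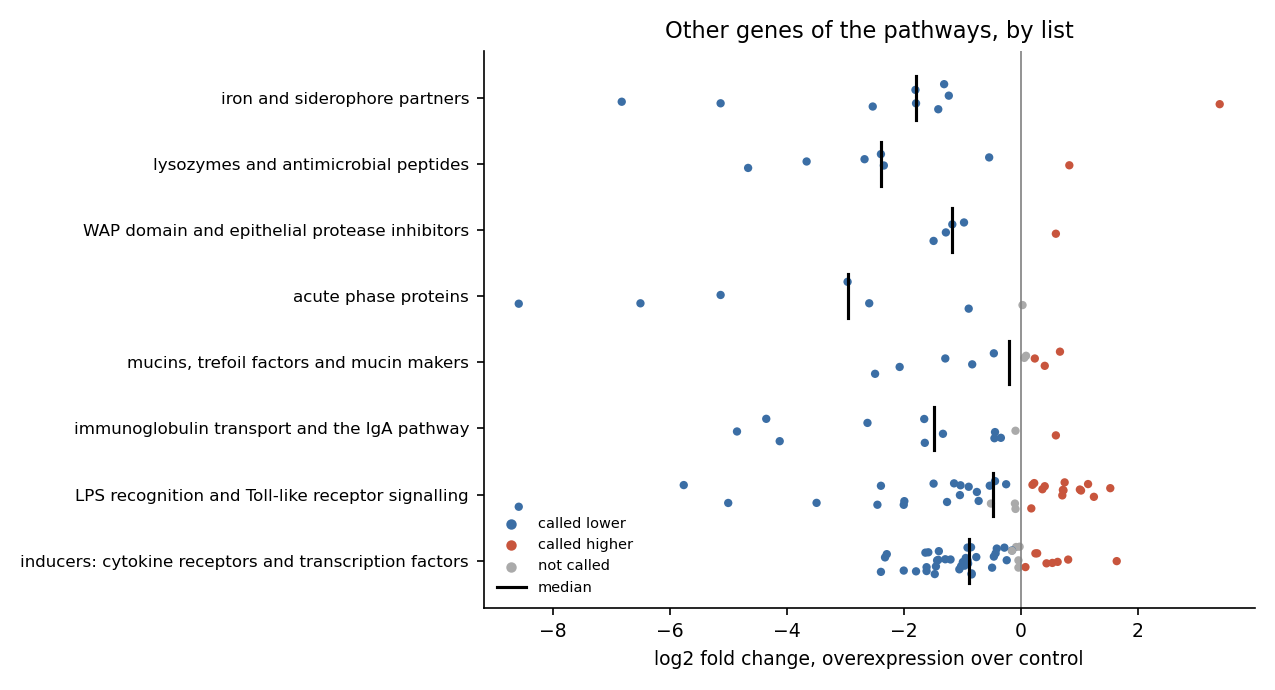
Log2 fold change of each tested gene in the 8 pathway lists, overexpression over control, coloured by its edgeR call, with a black bar at the list's median. The bars of 7 lists lie between -2.96 and -0.47 and that of the mucin list at -0.20, and Tfrc at 3.40 stands alone on the right of the iron list.

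Markers of the cell types that make these proteins were read from lists drawn up with the members. For comparison with the counts below, 43.9% of all tested genes were called lower and 42.1% higher. Keratinocyte markers summed to 636 to 655 CPM in the controls and 750 to 755 CPM with overexpression, with 5 of 9 tested lower and 4 higher, and their defining genes Krt5 and Dsc3 had no count in any library. Itga6 alone rose from 139 ± 1.6 to 328 ± 2.61 CPM, by more than the sum did. The largest others fell, Perp from 220 ± 4.71 to 152 ± 4.01 CPM and Itgb4 from 197 ± 7.63 to 141 ± 3.49 CPM. Of 15 glandular or luminal epithelial markers, 10 were tested, 8 lower and 1 higher, and their sum went from 6460 to 6579 CPM down to 4162 to 4222 CPM. Krt7 stood at 1173 ± 13.4 and 1163 ± 14.5 CPM and did not pass, while Krt19 fell from 433 ± 5.84 to 89.8 ± 1.17 CPM and the milk protein gene Csn3 from 29.6 ± 1.92 to 1.25 ± 0.521 CPM. The part of this shift in the fall of Ltf, Lcn2, Pigr and Slpi was not tested. Myeloid cells, which also make Ltf, Lcn2, Lyz2 and CD14, were checked with 16 markers, of which 3 were tested and 2 were lower. Their defining genes Adgre1, Tyrobp, Laptm5, Mpo and Csf3r had no count and 11 in all had fewer than 10. The lowered ones were Itgb2, from 96 ± 1.26 to 25.5 ± 0.89 CPM (edgeR adjusted p = 1.18e-38), and Cd68, from 19.1 ± 1.83 to 4.54 ± 0.873 CPM (edgeR adjusted p = 4.46e-22), which together gave most of a sum of 114 to 119 CPM in the controls and 30 to 33 CPM with overexpression. Csf1r, with 38 and 36 reads, did not pass. The part of these markers in the fall of Ltf and Lcn2 was not tested. Fibroblast markers summed to 43.3 to 52 CPM and 16.2 to 17.1 CPM, and 6 of 8 had fewer than 10 counts. Markers of B or plasma cells summed to 316 to 327 CPM and 328 to 330 CPM, with 1 of 7 tested, Sdc1, which did not pass in edgeR at an unadjusted p under 0.05 either, while DESeq2 called 1 of the list, Mzb1. The melanocyte list is described among the closing observations.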

How the data were processed

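Messenger RNA was measured in 3 control and 3 overexpression libraries, which held 14309898 to 16383374 counted reads each. The authors deposited whole-number read counts per gene, with FPKM values that per the file headers belong to the same libraries and that equal the count divided by the deposited gene length and the library's total. A deposited table by the authors holds log2 fold changes and p-values, of which the log2 values served only as a check (-8.23 for Ltf in the authors' deposited table, -8.22 here). The submitters' processing notes list HISAT2, HTSeq and DESeq, with no versions. The notes name the build mm9, but 21604 of 21817 genes matched by identifier have the coordinates of GENCODE release 21 on GRCm38, which are used here. How reads shared by paralogs were counted, and whether strand was used, the sources used here do not state.

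Counts were fitted with edgeR 4.0.16 in R 4.3.3 (filterByExpr with minimum count 10, TMM, robust quasi-likelihood F test, Benjamini-Hochberg adjustment over 11809 genes, threshold 0.05). The fit was checked on simulated data in which few genes changed. Most genes were called in these libraries, a setting which that check does not cover. CPM is scaled by TMM, and an SE is the log2 fold change over the square root of F. Count ratios carry an exact conditional 95% interval, and a group at 0 was set to 3 counts. The members, the 8 pathway lists and the marker lists were chosen with earlier results of these data known. Named genes are the 9 members, up to 4 called genes of each list with the smallest p, no overlap and 5 CPM or more in the higher group, and a short fixed set that includes Tlr4, Lbp, Irf1 and Jchain. Cst6, Pglyrp1, Pglyrp3, Adm, the Defb and Reg3 genes, Wfdc3, Muc2, Muc6, Muc15, Muc16, Muc20, Nfkbia, Socs3, Tnfaip3, Rel, Lif and Nfkb1 stand outside that rule. So do the neighbours on chromosome 2 and the markers, and all were named after their values were seen. The 3 genes most like Ltf, Lcn2 and Pigr were taken by distance over 6 libraries. The alternatives were DESeq2 1.42.0, limma 3.58.1 on log2(FPKM + 1), other scalings and filters, a 1.5-fold minimum, a replicate block, removal of a loess trend over gene length (span 0.5) and leaving out each library. GC content was not used, so the length trend was removed without it. No 2 libraries held identical counts. Read statistics per library were not used. RefSeq protein sequences were not used here.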

Additional observations from a re-analysis of the deposited data

How the results depend on the processing

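Among 1002 values recomputed, 950 kept their direction and their side of the threshold or moved less than the spread. Removing the length trend turned Wfdc2 to 0.03, Ly96 to 0.67, where it was called higher, Myd88 to 0.13 and Cebpd to 0.07 on the log2 scale. With each library left out in turn, Ly96 ranged from -0.17 to 0.00 and Cebpd from -0.18 to 0.02, the upper ends without control replicate 2 and control replicate 1. Requiring a 1.5-fold change left 5947 genes called, 3 mucin genes lower and 1 higher, 0 protease inhibitors higher, 0 IgA pathway genes higher, 9 Toll-like receptor genes higher and 2 inducers higher. Without a filter on low counts, 7 protease inhibitors, 8 mucin genes and, on the higher side, 2 antimicrobial and 1 acute phase gene were called, and DESeq2 gave the same 2 and 1. At least 1 CPM in 3 libraries left 3 mucin genes lower. Upper quartile scaling gave 5 inducers higher, and removing the length trend gave 2 IgA pathway genes higher. Leaving out each library in turn gave 1 to 2 antimicrobial genes higher, -9.22 to -7.83 for Pigr, -5.22 to -3.60 for Muc1 and -8.38 to -8.03 for Ltf. Limma on log2(FPKM + 1), which compresses low values by construction, gave -6.18 for Ltf, -3.64 for Pigr and -1.52 for Muc1. The cause of the other changes was not tested.

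Same-numbered libraries of the groups did not detectably deviate together (correlations of -0.0048, -0.0031 and -0.031). The labels do not say if they share more than a number. With the replicate number as a block, 10116 genes were called against 10159. Depth limits Saa3, Lyz2 and the overexpression values of Pigr and Muc1, where 0 to 10 reads set each level.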

Other observations

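The melanocyte list, checked because the design line of the series names melanocytes, was low in both groups, with a sum of 8.04 to 9.78 CPM in the controls and 7.32 to 8.29 CPM with overexpression. Most of it was Mitf, a transcription factor with wider expression, at 7.01 ± 0.709 CPM in the controls and 4.92 ± 0.937 CPM with overexpression (edgeR adjusted p = 0.00323). Pmel, the other of the 2 genes that edgeR tested, was also lower. It went from 1.85 ± 0.124 to 0.844 ± 0.354 CPM (edgeR adjusted p = 0.00285), and 0 of the list were called higher. Tyr, the defining enzyme of pigment synthesis, had no count in any library. The related pigment enzymes Tyrp1 and Dct had 0 reads in the controls and 40 and 31 reads over the 3 overexpression libraries, or 0.88 ± 0.346 and 0.69 ± 0.149 CPM, which is under the filter of the edgeR test. DESeq2, run without that filter, called 4 of the 8 genes, Tyrp1 and Dct among them.

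Among the keratinocyte markers, Krt15, a keratin of basal cells, had 1005 reads in the controls and 0 with overexpression (edgeR adjusted p = 2.9e-35). Trp63, the transcription factor of stratified epithelia, had 53 reads against 5 (edgeR adjusted p = 9.81e-06). Krt14 rose from 30.5 ± 2.52 to 39.1 ± 3.14 CPM (edgeR adjusted p = 8.25e-06) and Sfn from 33.1 ± 1.74 to 87.8 ± 3.72 CPM (edgeR adjusted p = 5.32e-32). Of the keratins of simple epithelia, Krt18 fell from 1798 ± 6.85 to 1069 ± 4.5 CPM (edgeR adjusted p = 1.24e-41). Krt8 fell from 1238 ± 23.2 to 1088 ± 7.29 CPM (edgeR adjusted p = 1.48e-12). Krt7 stood at 1173 ± 13.4 and 1163 ± 14.5 CPM and did not pass (edgeR adjusted p = 0.563).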
